A study of Mus musculus with 35 samples.

Results

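Expression of the fatty acid oxidation genes governed by the nuclear receptor PPAR-alpha was followed across 3 mouse models of liver cancer. A total of 10 genes were chosen by name: the receptor Ppara and its targets Cyp4a14, Cyp4a10, Cd36, Pdk4, Acaa1b, Acot1, Cpt2, Ehhadh and Fgf21. Of these, 9 had a probe set annotated to them alone and could be followed among 18820 genes with such a probe set. For a gene with several, the brightest was used. Cyp4a10 had none of its own. A pair of probe sets shared with its neighbours, 1 with Cyp4a31 and 1 with Cyp4a31 and Cyp4a32, is described beside it and left out of the counts.

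PPAR-alpha is a ligand-activated receptor of hepatocytes that senses fatty acids and, paired with the receptor RXR, binds response elements near its target genes. In fasting it turns on fatty acid uptake, microsomal, peroxisomal and mitochondrial oxidation, ketogenesis and the secreted hormone FGF21. Synthetic ligands of the receptor, the peroxisome proliferators, raise the same genes in rodent liver.

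Liver RNA was measured on 35 arrays in 8 groups, with tumor and non-tumorous liver (NTL) from each model and liver of untreated control mice. In the DEN model, mice were injected with the carcinogen diethylnitrosamine at 10 mg/kg on day 15 of life and examined at 9 months: DEN tumor, DEN NTL and DEN control had 5 arrays each. In the LT model, tg1223 mice carry lymphotoxin alpha and beta, cytokines of the tumor necrosis factor family, expressed in the liver, and were kept for 12 months: LT tumor had 3 arrays and LT NTL had 5. In the MYC model, the strains TRE-MYC and LAP-tTA were combined, so that a liver promoter drives the tetracycline transactivator that switches on MYC, and chow with doxycycline at 200 mg/kg kept MYC off until 8 weeks of age. MYC tumor had 5 arrays and MYC NTL had 3, and 4 arrays of control liver, called LTMYC control here, serve both the LT and the MYC model. The controls were matched for sex and age, per the labels, but the Xist levels given with the array data go against a match of sex, most of all in the LT model. Xist was also high in DEN control replicate 3 and LTMYC control replicate 3, but in no tumor or NTL array of the DEN or MYC model. For MYC NTL, the identifiers given to the mice start with WT, and the labels do not settle whether the transgenes were present in these livers. No identifier stem is shared between tumor and NTL of a model, so tissue and animal cannot be told apart, and the 5 DEN tumors carry 3 stems and the 3 LT tumors 2.

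Values are on the log2 scale, so 1 unit is a doubling, and a gene is called where limma's adjusted p (Benjamini-Hochberg over 18822 features) was under 0.05. Changes are given with their standard errors and group means with standard deviations. Albumin, Alb, which defines hepatocytes, was between 13.59 and 13.78 in all 35 arrays. Xist, which is transcribed from the inactive X chromosome of females, was at 11.74 to 12.22 in 9 arrays and at 3.54 to 6.24 in the other 26. The high arrays were the 3 LT tumors, LT NTL replicates 1, 3, 4 and 5, DEN control replicate 3 and LTMYC control replicate 3. LT tumor and LT NTL against LTMYC control thus set 3 of 3 and 4 of 5 high arrays against 1 of 4. In bulk liver, fewer cells of a type and less RNA per cell cannot be told apart.

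**Figure D1:**
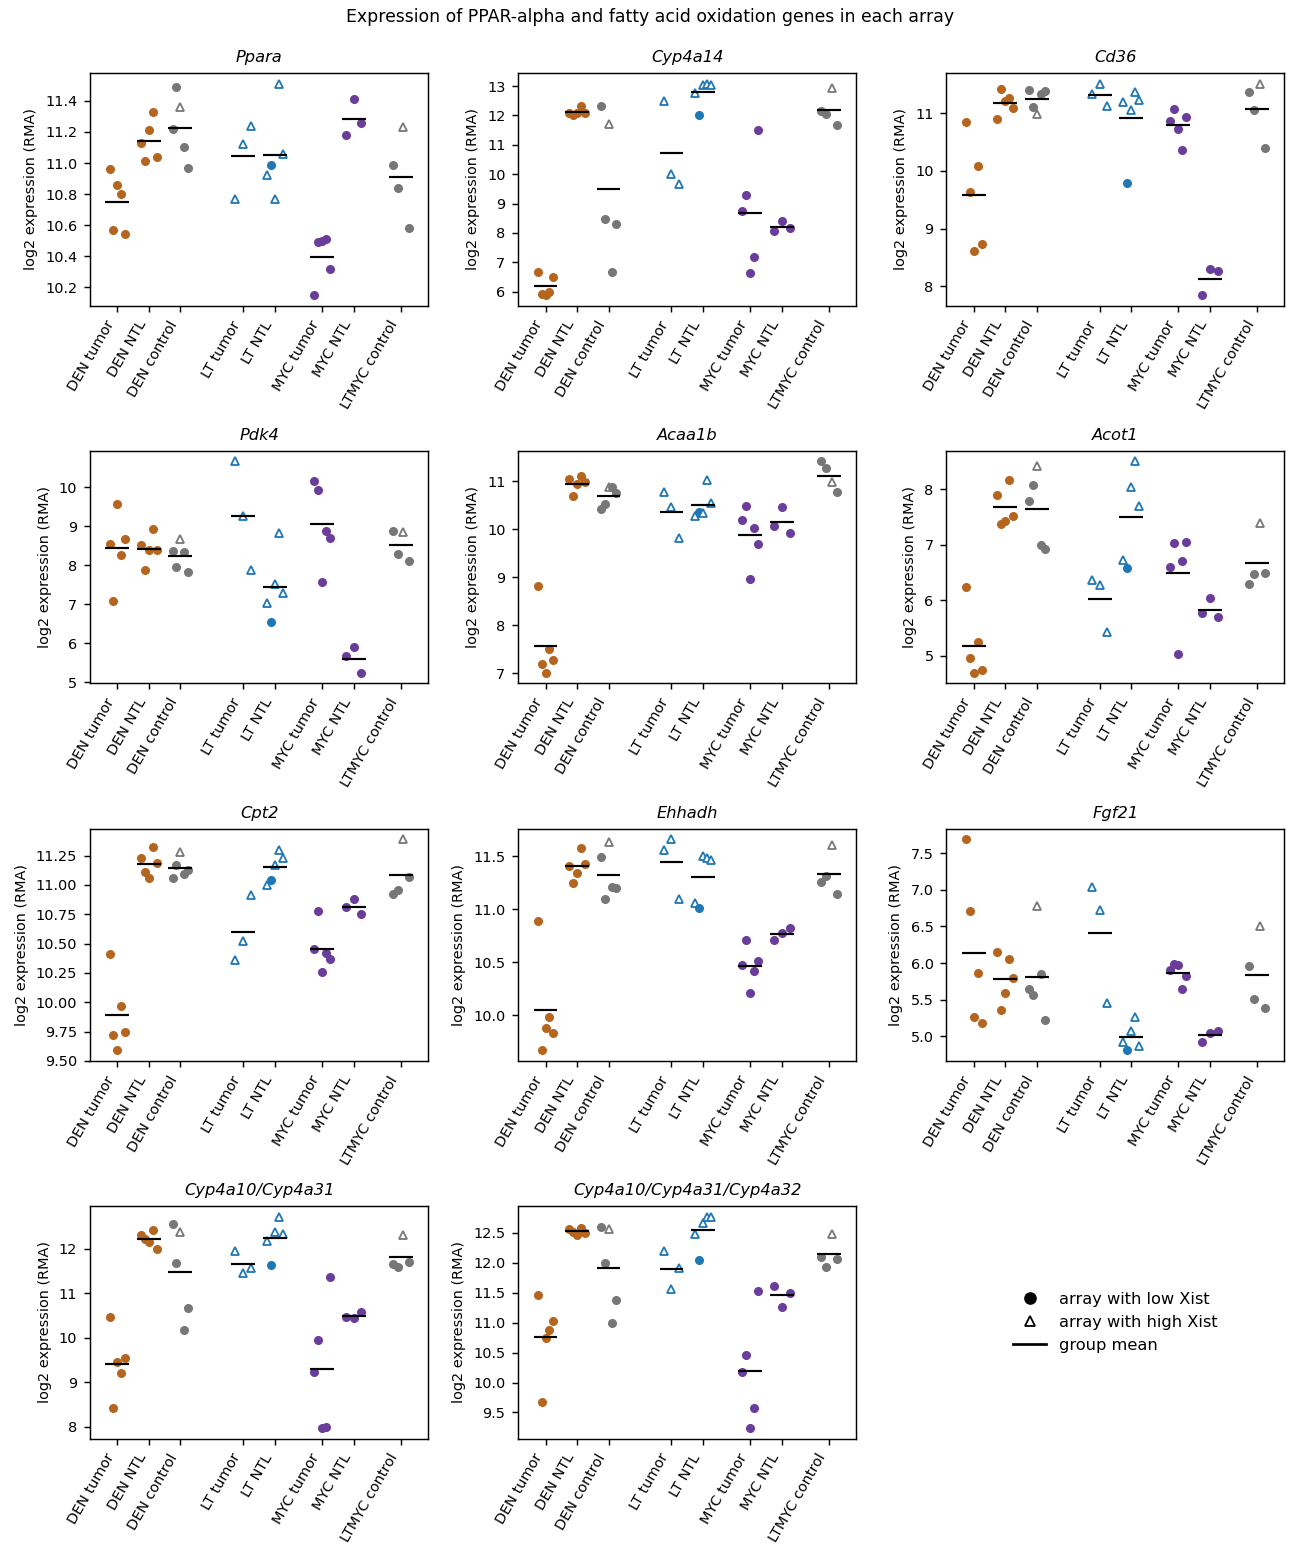
Expression of each gene on the log2 scale in every array (points) with the group mean (line), for the 9 genes and the 2 shared Cyp4a10 probe sets. Triangles are arrays with high Xist. Cyp4a14 lies at 5.88 to 6.65 in DEN tumors and at 12.03 to 12.33 in DEN NTL, and Cd36 lies at 7.85 to 8.30 in MYC NTL.

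Ppara, the receptor (chr15:85734910-85806851 in GRCm38.p6, as for the other gene positions given), had the narrowest range of the 9 genes, with group means between 10.40 and 11.28. It lay at 10.54 to 10.96 in DEN tumors, at 11.01 to 11.33 in DEN NTL and at 10.97 to 11.49 in DEN controls. DEN tumors thus lay below both other DEN groups without overlap. The change against NTL was -0.39 ± 0.13 (adjusted p 0.0171). This call was lost without DEN NTL replicate 4 (adjusted p 0.0532), without DEN tumor replicate 5 (0.0527) and after quantile normalization (change -0.25, 0.128). MYC tumors lay at 10.15 to 10.51, MYC NTL at 11.18 to 11.41 and LTMYC controls at 10.58 to 11.23. Ppara was thus lower in MYC tumors than in MYC NTL by 1.85-fold (-0.89 ± 0.15, adjusted p 6.11e-05) and lower than in controls (-0.52 ± 0.13, adjusted p 0.00614). Within arrays of low Xist the comparison with controls gave -0.41 with an adjusted p of 0.0527. In the LT model the groups overlapped, with 10.77 to 11.24 in LT tumors and 10.77 to 11.51 in LT NTL.

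Cd36, the membrane protein that takes up long-chain fatty acids (chr5:17781690-17888959), was low in a single group of non-tumorous liver and in DEN tumors. Its promoter is the only one of the 8 listed genes found in the RefSeq promoter table that holds the nuclear receptor half-site AGGTCA, and is shown for that reason (chr5:17835847-17836146, minus strand, GRCm38.p6, 250 bases before to 50 after the start, 5′ to 3′ along the gene). Capitals mark the half-site, on the opposite strand, and a direct repeat of it with a gap of 1 base (AGGTCANAGGTCA) at 2 mismatches, also on the opposite strand.
Cd36: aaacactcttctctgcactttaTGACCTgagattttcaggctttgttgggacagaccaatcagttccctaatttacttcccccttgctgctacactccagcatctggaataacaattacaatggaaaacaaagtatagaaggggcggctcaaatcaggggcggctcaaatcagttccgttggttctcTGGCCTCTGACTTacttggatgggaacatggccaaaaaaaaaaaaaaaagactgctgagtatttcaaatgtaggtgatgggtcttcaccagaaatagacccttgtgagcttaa
This window lies inside the Cd36 span given above, so the start it covers is internal to the gene and not its outermost end. Counted from that internal start, the first base of the half-site is at -228 and that of the repeat at -63. On either strand, 16.3% of 32851 promoters of this length hold the half-site and 3.86% hold the repeat with up to 2 mismatches, a search added after the values were seen. A match is a description of these letters and not a measured site.

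In the DEN model, Cd36 was at 10.85, 9.63, 8.62, 10.09 and 8.73 in tumors. It was at 10.90, 11.42, 11.22, 11.26 and 11.09 in NTL, and at 11.40, 11.11, 10.98, 11.33 and 11.39 in controls. Every DEN tumor lay below every NTL array, replicate 1 only narrowly, and the tumors were lower by 3.02-fold (-1.60 ± 0.30, adjusted p 0.000118). Macrophages and endothelial cells also express Cd36: of 10 Kupffer cell markers measured, 9 were lower in DEN tumors and none higher, with list means of 6.95 to 8.05 in tumors and 8.69 to 9.52 in NTL. The other lists did not fall: endothelial list means were 8.75 to 9.08 in tumors and 8.61 to 8.77 in NTL. Those of monocytes and macrophages were 6.66 to 7.11 in tumors and 6.25 to 6.98 in NTL. The part of these cells in the Cd36 result was not tested.

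In the MYC model, Cd36 was at 10.86, 11.08, 10.73, 10.36 and 10.94 in tumors, at 7.85, 8.30 and 8.26 in NTL, and at 11.36, 11.05, 11.51 and 10.40 in LTMYC controls. MYC NTL stood apart below both, while tumors and controls overlapped. MYC NTL was 7.73-fold lower than control (-2.95 ± 0.36, adjusted p 6.3e-06), and MYC tumors were 6.33-fold higher than MYC NTL (2.66 ± 0.35, adjusted p 2.36e-06). MYC tumors against controls gave -0.29 ± 0.32 (adjusted p 0.585). None of the Kupffer, monocyte and macrophage or endothelial markers (10, 11 and 11 measured) was called in MYC NTL against control. Some list means were lower there all the same. For monocytes and macrophages the highest MYC NTL array was at 6.08 and the lowest LTMYC control array at 6.33. For endothelial cells these were at 8.40 and 8.60. Kupffer list means overlapped, at 8.39 to 8.55 in MYC NTL and 8.44 to 8.68 in LTMYC controls. The part of these cells in the fall of Cd36 in MYC NTL was not tested. In the LT model Cd36 was at 11.34, 11.50 and 11.13 in tumors and at 11.19, 9.80, 11.05, 11.36 and 11.23 in NTL, where replicate 2 lay far below the other 4, and the change of 0.40 ± 0.35 was not called.

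Cyp4a14, a microsomal fatty acid omega-hydroxylase (chr4:115486200-115496158), varied most, with group means spread over 6.61 units. It was at 6.65, 5.90, 5.88, 5.99 and 6.48 in DEN tumors, at 12.08, 12.03, 12.07, 12.33 and 12.09 in DEN NTL, and at 12.32, 8.47, 11.71, 6.68 and 8.29 in DEN controls. The NTL arrays were tightly grouped, whereas the controls were scattered from near the NTL values to near the tumor values. DEN tumors were 61.4-fold lower than NTL (-5.94 ± 0.78, adjusted p 6.38e-07) and 9.95-fold lower than controls (-3.31 ± 0.78, adjusted p 0.00126). DEN NTL against control gave 2.63 ± 0.78, with an unadjusted p of 0.00205 and an adjusted p of 0.195.

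In the LT model Cyp4a14 was at 12.49, 9.99 and 9.65 in tumors and at 12.76, 12.02, 13.05, 13.08 and 13.03 in NTL. LT tumor replicate 1 lay within the NTL range and the other 2 tumors below it, and the change of -2.08 ± 0.90 missed the threshold (adjusted p 0.103). With Xist class as a factor it was -2.40 and just passed (adjusted p 0.0493). MYC tumors had 8.76, 9.29, 6.62, 7.17 and 11.51, MYC NTL had 8.06, 8.41 and 8.15, and LTMYC controls had 12.15, 12.05, 12.92 and 11.66. Both MYC groups lay below all 4 controls, and the tumors spread above and below NTL. MYC NTL was 15.9-fold lower than control (-3.99 ± 0.94, adjusted p 0.0113), a call lost without MYC NTL replicate 1 (-3.91, adjusted p 0.0616). MYC tumors were 11.5-fold lower than control (-3.53 ± 0.83, adjusted p 0.00235), and tumor against NTL gave 0.46 ± 0.90 (adjusted p 0.769).

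Cyp4a10, a close paralog nearby on the same chromosome (chr4:115518287-115533649), was read through the shared probe sets. The probe set of Cyp4a10/Cyp4a31 lay at 8.42 to 10.47 in DEN tumors, at 12.00 to 12.42 in DEN NTL and at 10.17 to 12.55 in DEN controls. The tumors were 6.98-fold lower than NTL (-2.80 ± 0.46, adjusted p 2.06e-05). In MYC tumors it lay at 7.97 to 11.37, in MYC NTL at 10.44 to 10.57 and in LTMYC controls at 11.60 to 12.30. MYC tumors were 5.71-fold lower than control (-2.51 ± 0.49, adjusted p 0.000356), and MYC NTL gave -1.33 ± 0.56 (adjusted p 0.203). The other shared probe set, Cyp4a10/Cyp4a31/Cyp4a32, gave -1.77 ± 0.32 in DEN tumors against NTL (adjusted p 8.25e-05). In MYC tumors against MYC NTL it gave -1.26 ± 0.37 (adjusted p 0.0145), lost without MYC NTL replicate 1 (adjusted p 0.0648) and when only these groups were fitted (0.0766). Cyp4a31, with a probe set of its own, gave -0.72 ± 0.38 in DEN tumors against NTL (adjusted p 0.152).

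Acaa1b, the peroxisomal 3-ketoacyl-CoA thiolase B (chr9:119148043-119157093), had the largest fall in DEN tumors after Cyp4a14. It was at 8.81, 7.20, 7.01, 7.51 and 7.27 in DEN tumors, at 11.04, 10.68, 10.93, 11.11 and 10.98 in DEN NTL, and at 10.43, 10.52, 10.88, 10.87 and 10.75 in DEN controls. Replicate 1 lay above the other 4 tumors and still below every NTL and control array. The tumors were 10.5-fold lower than NTL (-3.39 ± 0.26, adjusted p 5.59e-11). Tumors and NTL overlapped in the LT model, with 9.82 to 10.77 in tumors and 10.27 to 11.03 in NTL, and in the MYC model, with 8.97 to 10.49 in tumors and 9.93 to 10.46 in NTL. MYC tumors lay wholly below the LTMYC controls (10.78 to 11.41), by -1.24 ± 0.27 (adjusted p 0.00136). MYC NTL lay below them too, by -0.97 ± 0.31, with an adjusted p of 0.0811.

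Ehhadh, the peroxisomal bifunctional enzyme (chr16:21761285-21787834), was lower in DEN tumors at 9.67 to 10.89, against 11.25 to 11.58 in DEN NTL and 11.10 to 11.63 in DEN controls. The tumors overlapped neither NTL nor controls, which overlapped each other, and the change against NTL was -1.35 ± 0.16 (2.55-fold, adjusted p 1.29e-07). MYC tumors lay at 10.21 to 10.71, MYC NTL at 10.71 to 10.82 and LTMYC controls at 11.14 to 11.60. The fall in MYC tumors was called against control (-0.86 ± 0.17, adjusted p 0.000425) and not against NTL (-0.31 ± 0.19, adjusted p 0.255). MYC NTL lay below all controls, by -0.55 ± 0.19, with an adjusted p of 0.113. LT tumors, at 11.10 to 11.66, overlapped LT NTL at 11.01 to 11.50.

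Acot1, the cytosolic acyl-CoA thioesterase (chr12:84009502-84017670), was at 6.24, 4.95, 4.69, 5.24 and 4.73 in DEN tumors, at 7.90, 7.37, 7.42, 8.16 and 7.51 in DEN NTL, and at 6.93 to 8.42 in DEN controls. All tumors lay below all other DEN arrays, and the fall against NTL was 5.66-fold (-2.50 ± 0.38, adjusted p 6.38e-06). Acot1 was at 6.36, 6.28 and 5.42 in LT tumors and at 6.72, 6.58, 8.04, 8.50 and 7.69 in LT NTL. The LT groups did not overlap, and LT NTL replicate 2, its array with low Xist, was the lowest of the NTL group. LT tumors were 2.80-fold lower than NTL (-1.49 ± 0.44, adjusted p 0.0149), which no longer passed once LT tumor replicate 3 was left out (-1.19, adjusted p 0.0766). MYC tumors were at 6.60, 7.03, 5.03, 6.70 and 7.04, MYC NTL at 5.76, 6.03 and 5.69, and LTMYC controls at 6.29, 6.47, 7.39 and 6.49. Among MYC tumors replicate 3 lay far below the other 4, and the tumors overlapped both NTL and controls. Neither MYC comparison that involves tumors was called (0.66 ± 0.44 against NTL, -0.18 ± 0.40 against control). MYC NTL lay below all controls, by -0.83 ± 0.46, with an adjusted p of 0.386.

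Cpt2, carnitine palmitoyltransferase 2 of the inner mitochondrial membrane (chr4:107903982-107923589), was at 10.41, 9.72, 9.59, 9.97 and 9.75 in DEN tumors, against 11.06 to 11.32 in DEN NTL and 11.06 to 11.28 in DEN controls. The tumors were 2.45-fold lower than NTL with no overlap (-1.29 ± 0.12, adjusted p 1.44e-09). LT tumors were at 10.36, 10.52 and 10.91 and LT NTL at 11.00 to 11.30, again without overlap. That change was -0.55 ± 0.14 (adjusted p 0.00474) and missed the threshold once LT tumor replicate 1 was left out (-0.43, adjusted p 0.0814). LT tumors were also lower than LTMYC controls, which lay at 10.92 to 11.39 (-0.49 ± 0.14, adjusted p 0.0207). It missed the threshold on dropping LT tumor replicate 1 (-0.37, adjusted p 0.183), LT tumor replicate 2 (-0.45, 0.0725) or LTMYC control replicate 3 (-0.39, 0.0778). MYC tumors lay at 10.26 to 10.78 and MYC NTL at 10.75 to 10.88, overlapping by 1 array. The change against NTL was -0.36 ± 0.14 (adjusted p 0.0591) and that against control -0.63 ± 0.13 (adjusted p 0.000507).

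Pdk4, the kinase that shuts off pyruvate dehydrogenase when fat is burned (chr6:5483351-5496278), behaved unlike the oxidation enzymes. It was at 8.55, 7.09, 9.58, 8.27 and 8.67 in DEN tumors, within which both the lowest and the highest DEN array lay, at 7.88 to 8.94 in DEN NTL and at 7.84 to 8.67 in DEN controls. The change of 0.01 ± 0.46 against NTL had a 95% interval of -0.94 to 0.95. LT tumors were at 10.66, 9.27 and 7.88 and LT NTL at 7.03, 6.55, 7.53, 8.84 and 7.29, so the groups overlapped. Pdk4 was 3.54-fold higher in LT tumors (1.82 ± 0.54, adjusted p 0.0148), but not once LT tumor replicate 1 was left out (1.13, adjusted p 0.247), nor with arrays of a shared stem averaged (1.47, 0.103). In the MYC model it was at 10.16, 9.92, 7.57, 8.89 and 8.70 in tumors, at 5.67, 5.90 and 5.25 in NTL, and at 8.88, 8.28, 8.85 and 8.10 in LTMYC controls. MYC NTL lay more than 1 unit below every other array of the MYC comparisons. It was 7.56-fold lower than control (-2.92 ± 0.56, adjusted p 0.00199), and tumors were 10.9-fold higher than NTL (3.44 ± 0.54, adjusted p 2.83e-05). MYC tumors and controls overlapped (0.52 ± 0.49, adjusted p 0.506).

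Fgf21, the hepatic hormone induced by PPAR-alpha in fasting (chr7:45613890-45615490), was at 7.69, 6.71, 5.27, 5.87 and 5.18 in DEN tumors, at 6.15, 5.36, 5.59, 6.05 and 5.79 in DEN NTL, and at 5.65, 5.56, 6.78, 5.85 and 5.23 in DEN controls. DEN tumors 1 and 2 were above the NTL range and tumors 3 and 5 below it, and the change was 0.36 ± 0.34 (adjusted p 0.451). It was at 7.04, 6.73 and 5.45 in LT tumors and at 4.93, 4.81, 5.08, 5.27 and 4.87 in LT NTL, with no overlap. The rise in LT tumors was 2.66-fold (1.41 ± 0.39, adjusted p 0.0105) and missed the threshold when LT tumor replicate 1 (1.10, adjusted p 0.13) or 2 (1.25, 0.0576) was dropped. LT NTL lay below all LTMYC controls. LT tumors overlapped those controls, with a change of 0.56 ± 0.41 (adjusted p 0.367). MYC tumors, at 5.65 to 5.99, lay above MYC NTL, at 4.92 to 5.08, without overlap, and overlapped LTMYC controls at 5.39 to 6.51. The change against NTL, 0.85 ± 0.39, was not called in the fit over all arrays (adjusted p 0.125) and was called when only these groups were fitted (0.000683). Fgf21 was dim in LT NTL and MYC NTL, between the lower quartile (4.38 to 4.54) and the median (6.03 to 6.43) of genes on the arrays. Array brightness is compressed toward that end, which limits these fold changes.

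NTL was set against control liver to see whether the programme had already shifted outside the tumors. In the DEN model no such shift was detected: 0 of 9 genes were called in DEN NTL against DEN control, where limma called 0.0691% of features higher and 0.128% lower. At an unadjusted p under 0.05 there was 1 gene, Cyp4a14, and the median change of the 9 genes was 0.03, against 0.01 over all features. None of the 57 measured genes of the wider fatty acid oxidation and PPAR-alpha lists was called. In LT NTL against LTMYC control 0 of 9 genes were called as well, with 1.37% of features higher and 1.04% lower. Here 4 had an unadjusted p under 0.05: Pdk4 (-1.08 ± 0.49), Acaa1b (-0.61 ± 0.27), Fgf21 (-0.85 ± 0.36) and Acot1 (0.85 ± 0.40), with adjusted p between 0.241 and 0.303. Of the 57 wider genes, Slc27a1, a fatty acid transporter, was higher (0.96), and Plin2, a lipid droplet protein, (-0.84) and Crot, peroxisomal carnitine octanoyltransferase, (-0.63) were lower.

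MYC NTL was the exception, and 3 of 9 genes were called there, all lower than in LTMYC control: Cyp4a14, Cd36 and Pdk4. In this comparison limma called 2.17% of features lower and 1.66% higher. The 9 genes had a median change of -0.83, against -0.00 over all features. The other 6 were not called, and Ppara gave 0.37 ± 0.15 (adjusted p 0.192). Of the 57 wider genes 4 were lower and 1 higher: Crat, carnitine acetyltransferase (-1.59), Hacl1, a peroxisomal lyase (-0.98), Hsdl2 (-0.64) and Tmem135 (-0.55) were lower, and Acox3, a peroxisomal oxidase, was higher (0.51). No mitochondrial beta-oxidation gene of 17 measured was called. Within arrays of low Xist the 3 falls were -3.75 for Cyp4a14 (adjusted p 0.0312), -2.81 for Cd36 (1.14e-05) and -2.81 for Pdk4 (0.00861).

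Other genes moved with that shift. Of 14 clock genes measured, 6 were higher and 2 lower in MYC NTL than in LTMYC control, among them the repressor Ciart (3.39 ± 0.84, adjusted p 0.0171) and the activator Arntl (-2.53 ± 0.51, adjusted p 0.00314). Ciart lay at 10.51 to 10.91 in MYC NTL and at 5.42 to 9.03 in LTMYC controls. Of 11 genes of PPAR-gamma and lipid storage, 4 were lower, Cidea (-3.78), Mogat1 (-2.07) and Pparg itself (-2.04) by the most, and 0 were higher. Of 17 receptors and coregulators, a list that also holds Pparg, 1 was lower and 1 higher, the coactivator Ppargc1b (1.11). The part of the clock genes in the result was not tested. The identifiers of these 3 arrays begin with WT, so strain, transgene and group cannot be told apart.

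Tested directly, LT NTL against MYC NTL differed in 4 of 9 genes, all higher in LT NTL, where 8.65% of features were called in either direction. These were Cyp4a14 (4.58 ± 0.90, adjusted p 0.00147), Cd36 (2.79 ± 0.35, 4.61e-06), Pdk4 (1.84 ± 0.54, 0.0286) and Acot1 (1.68 ± 0.44, 0.0142). Xist was high in 4 of 5 LT NTL arrays and in 0 of 3 MYC NTL arrays: with it as a factor Cyp4a14 gave 3.32 (adjusted p 0.0973), Pdk4 1.28 (0.363) and Acot1 0.85 (0.432), and only Cd36 was called. The call for Pdk4 was also lost without LT NTL replicate 3 (0.0506), LT NTL replicate 4 (0.0824) or any 1 of the MYC NTL replicates (0.0604 to 0.123), and that for Acot1 without MYC NTL replicate 1 (0.0648) or 3 (0.0642). The NTL minus control change of DEN minus that of MYC was called for 3 of 9 genes, with 3.26% of features in either direction. It was 6.61 ± 1.22 for Cyp4a14, 2.89 ± 0.47 for Cd36 and 3.11 ± 0.73 for Pdk4. Between DEN and LT, 0 of 9 were called (4.47% of features), with 1 gene, Acaa1b, at an unadjusted p under 0.05.

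**Figure D2:**
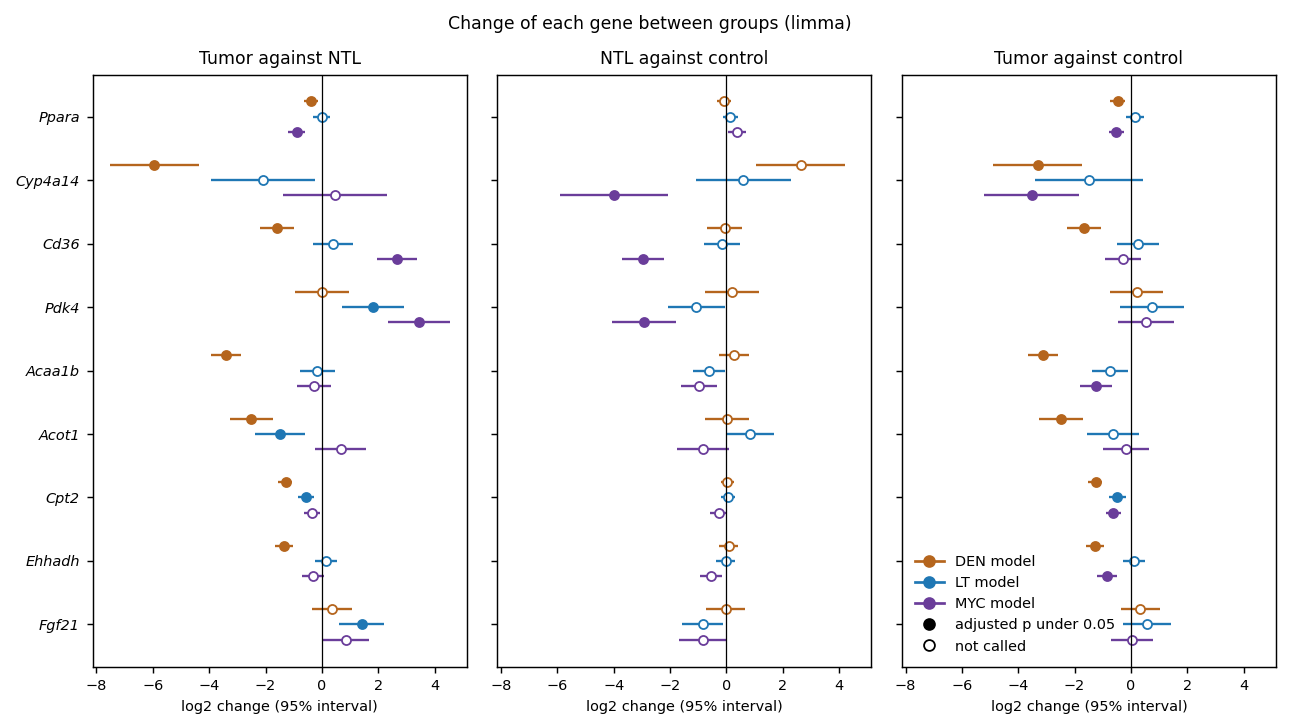
Log2 change of each of the 9 genes with its 95% interval, in tumor against NTL (left), NTL against control (middle) and tumor against control (right), by model. Filled points are called at an adjusted p under 0.05: 7 genes are lower in DEN tumors in both tumor panels, and Cyp4a14, Cd36 and Pdk4 are lower in MYC NTL.

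Tumor was then set against NTL of the same model, from different animals. In DEN tumors enzymes of the microsomes, peroxisomes, cytosol and mitochondria were lower: 7 of 9 genes were lower and 0 higher, where 16.7% of features were lower and 15.6% higher. The 9 genes had a median change of -1.35, against -0.04 over all features. The exceptions were Pdk4 and Fgf21. Of 17 receptors and coregulators measured, 2 were lower, the bile acid receptor Nr1h4 (-1.08) and Rxrg (-0.98), and Ncoa2 was higher (0.37). The coactivator Ppargc1a gave 0.06 ± 0.27 (adjusted p 0.887).

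The other genes of the pathway moved with them in DEN tumors. Of 17 mitochondrial beta-oxidation genes measured, 13 were lower, including Decr1, a dienoyl-CoA reductase (-1.43), the carnitine carrier Slc25a20 (-1.28) and Etfdh, which passes electrons to ubiquinone (-1.20), and Acsl5 was higher (0.47). Of 17 peroxisomal genes, 14 were lower, led by the enoyl-CoA reductase Pecr (-1.85), Hacl1 (-1.69) and Scp2, a thiolase and sterol carrier (-1.64), and the transporter Abcd2 was higher (2.26). Of 25 other PPAR-alpha targets, 10 were lower, led by retinol saturase Retsat (-2.72), the monoacylglycerol lipase Mgll (-2.19) and Pex11a, a peroxisome division protein (-1.58), and 2 were higher. Of 12 hepatocyte markers 2 were lower and 2 higher, with list means of 13.12 to 13.21 in tumors and 13.16 to 13.27 in NTL, near the top of the scale. Of 7 cholangiocyte markers 5 were higher and 0 lower, with means of 5.90 to 6.32 in tumors and 5.01 to 5.23 in NTL, and their part was not tested. Mki67, a mark of dividing cells, was higher (2.11 ± 0.36, adjusted p 2.92e-05). Among paralogs, 6 of 11 Cyp4 genes were lower, with Cyp4a12b (-3.80), Cyp4a12a (-3.55) and Cyp4f14 (-1.82) changing most, and Cyp4f16 was higher (1.50). The first 2 belong to the male-biased genes of mouse liver, of which 11 of 14 were lower in DEN tumors, and all arrays of this comparison had low Xist.

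In LT tumors the change went both ways: Pdk4 and Fgf21 were higher and Acot1 and Cpt2 lower, which makes 2 of 9 higher and 2 lower, where 10.7% of features were higher and 9.73% lower. The median change of the 9 genes was -0.01, against -0.03. Of the 4 calls, 1 was kept on dropping LT tumor replicate 1 and 0 in a fit of these groups alone, although limma then still called 615 features. The mitochondrial genes nevertheless leaned one way, with 10 of 17 lower and 0 higher, including the isomerase Eci2 (-0.82), Decr1 (-0.65) and Slc25a20 (-0.55). Of 17 peroxisomal genes 3 were lower, Hacl1 (-0.76), Pecr (-0.66) and Ech1 (-0.65), and of 25 other targets 4 were lower and Aqp7, a glycerol channel, was higher (3.33). Markers of other cells moved as well: 11 of 11 monocyte and macrophage markers, 7 of 11 stellate cell markers and 6 of 10 lymphocyte markers were higher. The monocyte and macrophage list had means of 7.19 to 8.57 in LT tumors and 6.02 to 6.59 in LT NTL, and 1 of 12 hepatocyte markers was lower. The part of cell makeup in these results was not tested.

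In MYC tumors Cd36 and Pdk4 were higher and Ppara lower than in MYC NTL, so 2 of 9 genes were higher and 1 lower, where 11.5% of features were higher and 10.3% lower. The median change of the 9 genes was 0.46, against -0.03 over all features. These are the same MYC NTL arrays in which Cd36 and Pdk4 lay below control. The wider pathway leaned downward: 5 of 17 mitochondrial genes were lower and 1 higher, led by Decr1 (-0.72), Eci2 (-0.64) and Slc25a20 (-0.61) and with Acadm higher (0.32). Of 17 peroxisomal genes 7 were lower, led by Decr2 (-1.14), the acyl-CoA synthetase Slc27a2 (-0.77) and Acox3 (-0.65), and Crat was higher (1.16). Of 25 other targets 9 were lower, led by Angptl4, an inhibitor of lipoprotein lipase (-1.65), Txnip (-1.52) and Retsat (-1.09). Markers moved as well: 5 of 12 hepatocyte and 5 of 11 stellate cell markers were lower and 0 higher, and 5 of 11 monocyte and macrophage markers were higher and 0 lower. The monocyte and macrophage list had mean levels with a median of 6.68 over MYC tumors and 6.05 over MYC NTL, and the lowest MYC tumor, at 6.33, was above the highest MYC NTL array, at 6.08. The Kupffer list went the other way, with means of 7.26 to 8.29 in MYC tumors and 8.39 to 8.55 in MYC NTL. Of 14 clock genes 8 were lower and 3 higher. The part of these in the results for Cd36, Pdk4 and Ppara was not tested.

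**Figure D3:**
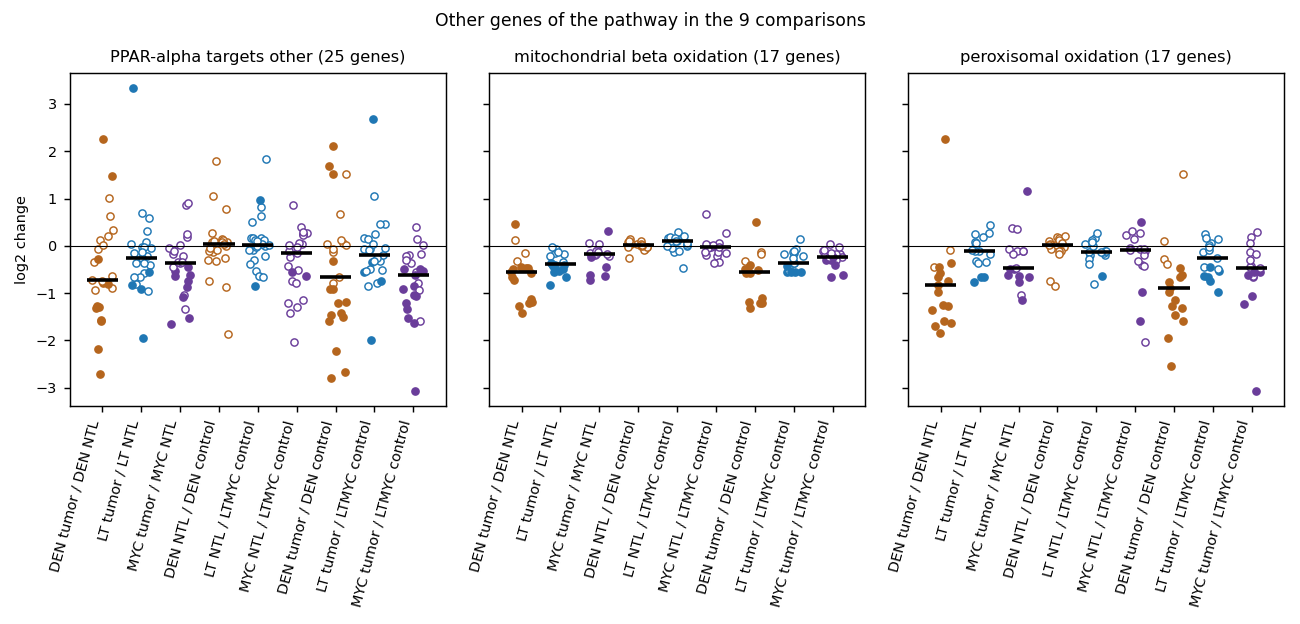
Log2 change of the measured genes of 3 lists (points) and the list median (line) in 9 comparisons, coloured by model, with called genes filled. In DEN tumors against NTL the medians are -0.72, -0.56 and -0.82 from left to right, and in DEN NTL against control they are 0.03, 0.01 and 0.01.

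Against control liver, DEN tumors again had 7 of 9 genes lower and 0 higher, where 15.6% of features were lower and 15.0% higher. The median change was -1.28. In MYC tumors 5 of 9 genes were lower than in LTMYC control and 0 higher, where 10.3% of features were lower and 10.2% higher: Ppara, Cyp4a14, Acaa1b, Cpt2 and Ehhadh. The median was -0.52, against -0.02 over all features, and of the 57 wider genes 24 were lower and 0 higher. Cd36 and Pdk4, which set MYC NTL apart, were not called in MYC tumors against control. In LT tumors 1 of 9 genes was lower, Cpt2, and 0 higher, where 7.73% of features were lower and 8.78% higher.

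The tumor minus NTL changes were then compared between models. The change in DEN was more negative than that in LT for 5 of 9 genes, with 13.9% of features called in either direction: Cyp4a14 (-3.86 ± 1.19), Cd36 (-1.99 ± 0.46), Acaa1b (-3.23 ± 0.40), Cpt2 (-0.74 ± 0.18) and Ehhadh (-1.49 ± 0.25). For Cyp4a14 it missed the threshold on dropping LT tumor replicate 1 (-2.97, adjusted p 0.122) and with arrays of a shared stem averaged (-3.64, 0.088). Between DEN and MYC, 7 of 9 differed, all more negative in DEN, with 15.1% of features called: only Ppara and Fgf21 were not called. The differences were -6.40 ± 1.19 for Cyp4a14, -4.26 ± 0.46 for Cd36 and -3.44 ± 0.71 for Pdk4, the 3 genes called lower in MYC NTL than in control. They were -3.11 ± 0.40 for Acaa1b, -3.16 ± 0.58 for Acot1, -0.93 ± 0.18 for Cpt2 and -1.04 ± 0.25 for Ehhadh. For Acaa1b, Acot1, Cpt2 and Ehhadh the MYC NTL arrays also lay below every control array, without a call. The share of all features that lie so was not counted, so this gap is a description only. Between LT and MYC, 3 of 9 differed, with 12.4% of features called: Ppara was 0.88 ± 0.21 more positive in LT, and Cd36 (-2.27 ± 0.49) and Acot1 (-2.14 ± 0.62) were more negative. The Acot1 difference was lost without LT tumor replicate 3 (-1.84, adjusted p 0.053) or MYC NTL replicate 3 (-2.07, 0.0515), and in a fit of the 4 groups alone (0.067).

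Ordered by group mean, DEN tumors were lowest for Cyp4a14, Acaa1b, Acot1, Cpt2 and Ehhadh, MYC NTL for Cd36 and Pdk4, MYC tumors for Ppara and LT NTL for Fgf21. The lowest group lay apart from the next without overlap for Ppara, Cyp4a14, Cd36, Pdk4 and Acaa1b. How many of all features have such a gap was not counted. Among the upper groups nearly all neighbours overlapped, the exceptions being LTMYC control over MYC NTL for Cpt2, LT NTL over MYC NTL for Ehhadh and DEN NTL over MYC NTL for Fgf21. Lower down, MYC NTL lay just above MYC tumors for Ehhadh.

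Genes whose 8 group means ran most alike to those of each gene were picked among 11709 genes that differed between groups, by Pearson r, as a description. For Cpt2 they were Miga2 (0.993), Chchd2 (0.992) and Mgll (0.990), and for Acaa1b Srr (0.993), Tff1 (0.987) and Bhmt2 (0.985). For Ehhadh they were Fam53b (0.970), Hsdl2 (0.967) and Smad6 (0.966), and for Acot1 Engase (0.982), Exd2 (0.972) and Slc25a45 (0.968). Cyp4a14 had Fbln7 (0.964), Lad1 (0.940) and Rfx4 (0.931), and Cd36 had Gpatch2l (0.955), Galnt2 (0.952) and Rnd2 (0.948). Ppara had F3 (0.978), Btbd2 (0.972) and Lrp1 (0.971). Sqstm1 was among the nearest of both Pdk4 (0.943, after Hjv at 0.969 and 2010003K11Rik at 0.948) and Fgf21 (0.951, after Piezo1 at 0.955 and beside Nudt18 at 0.951).

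**Figure D4:**
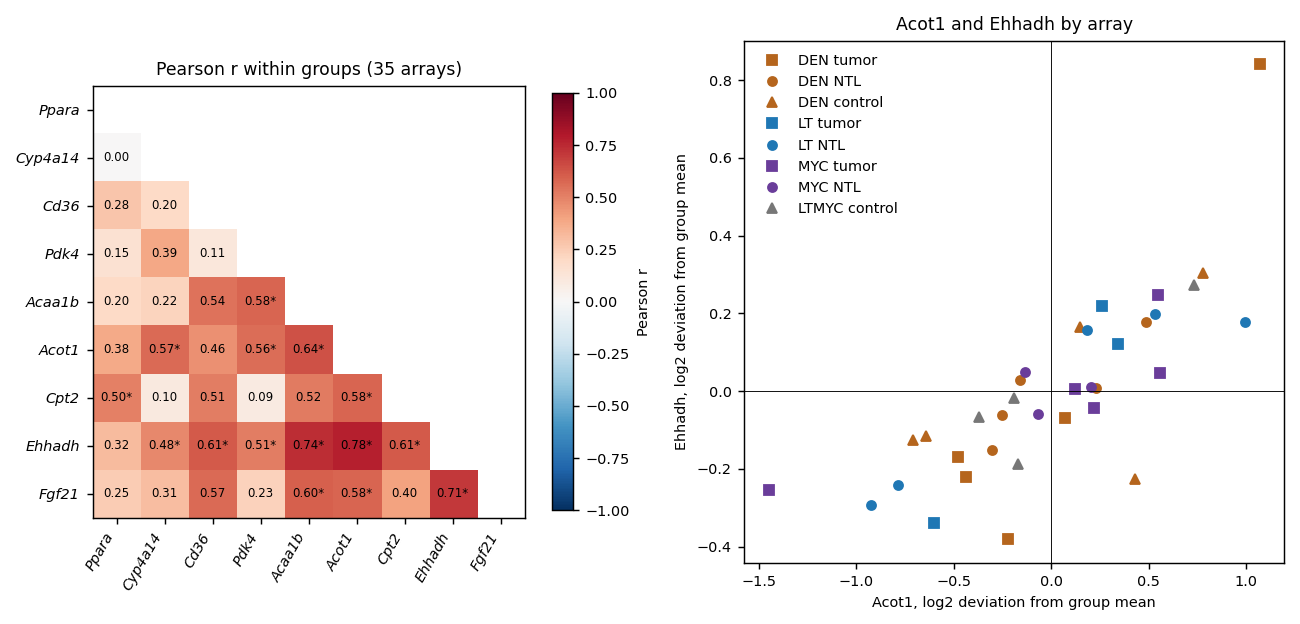
Left, Pearson r of deviations from the group means for the 36 pairs of genes over 35 arrays, with an asterisk where both r and rho passed at an adjusted p under 0.05. Right, the deviations of Acot1 and Ehhadh in each array, which rise together (r 0.78) with DEN tumor replicate 1 at the upper right.

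Within groups the genes also varied together. After each group's mean was removed, 36 of 36 pairs had a Pearson r of 0.00 or above over 35 arrays, with a median of 0.49. Of these, 19 passed by r and 15 by both r and Spearman's rho, in permutation tests within groups adjusted over the 36 pairs. Pairs of other genes were not examined, so these counts do not show that varying together is particular to these genes. The closest pair was Acot1 and Ehhadh, with r 0.78 (permutation p 2e-05, adjusted 0.00072) and rho 0.83 (permutation p 1e-05, the smallest that the permutations can give, adjusted 0.00036), and r was 0.78 without the 2 arrays farthest out. Acaa1b and Ehhadh followed with r 0.74 (permutation p 0.00077, adjusted 0.00648) and rho 0.62 (permutation p 0.0014, adjusted 0.0056), but r was 0.57 without the 2 farthest arrays. Ehhadh and Fgf21 had r 0.71 (permutation p 0.00182, adjusted 0.00936) and rho 0.62 (permutation p 0.00086, adjusted 0.00391), and Ppara and Cyp4a14 had r 0.00.

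Some arrays stood at the edge of their group for most of the genes. DEN tumor replicate 1 was the highest DEN tumor for 8 of 9 genes, DEN NTL replicate 4 the highest of its group for 7, LT NTL replicate 4 for 8 and LTMYC control replicate 3 for 7. MYC tumor replicate 3 was the lowest of its group for 6 of 9 genes and LT tumor replicate 3 for 7. How often these arrays stood at the edge over all features was not counted. Taken apart, the 15 DEN arrays left 2 pairs that passed both tests and the 20 LT and MYC arrays left 10, and all 15 pairs kept a positive r in both. Acot1 and Ehhadh had r 0.76 in the DEN arrays and 0.86 in the LT and MYC arrays. Over the 22 NTL and control arrays 12 pairs passed, and with the means of each group and Xist class removed 9 passed over 32 arrays, both added after the values were seen.

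The promoters of the closest pair are shown, since these genes moved together most tightly (250 bases before to 50 after the start, RefSeq, GRCm38.p6). Acot1 lies at chr12:84009252-84009551 on the plus strand and Ehhadh at chr16:21787785-21788084 on the minus strand, each printed 5′ to 3′ along its gene. Nothing is in capitals because neither window holds AGGTCA, and none of the 8 listed promoters holds AGGTCANAGGTCA without mismatch.
Acot1: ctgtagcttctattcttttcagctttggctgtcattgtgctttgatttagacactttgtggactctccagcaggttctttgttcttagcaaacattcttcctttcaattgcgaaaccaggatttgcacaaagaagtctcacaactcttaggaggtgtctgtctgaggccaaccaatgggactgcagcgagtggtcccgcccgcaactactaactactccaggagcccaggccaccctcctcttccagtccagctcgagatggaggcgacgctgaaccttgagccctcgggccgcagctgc
Ehhadh: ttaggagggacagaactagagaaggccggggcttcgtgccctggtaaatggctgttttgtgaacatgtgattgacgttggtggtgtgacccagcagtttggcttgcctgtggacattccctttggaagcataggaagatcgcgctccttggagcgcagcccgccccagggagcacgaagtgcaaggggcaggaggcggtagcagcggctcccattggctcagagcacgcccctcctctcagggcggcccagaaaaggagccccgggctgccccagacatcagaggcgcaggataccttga
Among all promoters of this length 0.0396% hold that repeat, so its absence here says only that these letters are not in these windows. Promoters of Cyp4a14 and Cyp4a10 were not analysed here.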

How the data were processed

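RNA of 35 liver samples was hybridised to single-colour Affymetrix Mouse Gene 1.1 ST arrays. The deposited values are log2 expression per probe set made by the authors with RMA, a summary of probe brightness over arrays, per the submitters' processing notes. Which release of the software was used is not given in the sources used here. Of 35556 probe sets, 21218 had 1 gene symbol, 1881 several and 12457 none in the platform annotation. The brightest single-symbol probe set stood for each of 18820 genes, and 2 shared Cyp4a10 probe sets were added. No value was rescaled.

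Group means over all 35 arrays were fitted with limma 3.58.1 in R 4.3.3 (lmFit, contrasts, eBayes), with Benjamini-Hochberg adjustment over 18822 features in each comparison. The fit was tested on simulated data. The labels do not say beyond mouse identifiers that replicates are separate animals, so p-values measure the spread between these arrays. The number of arrays limits the precision. Array medians over genes lay between 6.03 and 6.43, and 0 pairs of arrays were identical.

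All listed genes were named. From each other list at most 3 called genes of the larger direction and 1 of the other were named per comparison, and for each listed gene the 3 with the most similar group means. The genes and lists were chosen with earlier results of these data known. Deviations of same-numbered arrays correlated over 0.1 in all 3 pairs only for LT tumor against LTMYC control (0.14 to 0.23). The labels give no shared litter or day for a number, and the replicate block changed no call. Correlations within groups used 100000 permutations of arrays within groups. They covered 36 pairs because Cyp4a10 has no probe set of its own. Alternatives were the arrays fitted, the scaling, a filter on dim genes, the probe set per gene, averaged identifier stems, the replicate block, Xist class (log2 above 9), the variance model and leaving out each array.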

Additional observations from a re-analysis of the deposited data

Results flagged for a closer look

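Of 66 sets of group values of 4 or 5 arrays, 6 held an array whose gap to the others was large for the range of its group. Chance gives about 1 in 20 for independent sets, but these share arrays and genes that vary together. DEN tumor replicate 1 stood above the other DEN tumors for Acaa1b (8.81) and Ehhadh (10.89). DEN NTL replicate 4 stood slightly above its tight group for Cyp4a14 (12.33, the others 12.03 to 12.09), and LTMYC control replicate 3 above its group for the Cyp4a10/Cyp4a31 probe set (12.30). LT NTL replicate 2 stood below its group for Cd36 (9.80), and MYC tumor replicate 3 for Acot1 (5.03).

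A total of 24 effects differed between models by a test of the difference itself. LT NTL exceeded MYC NTL for Cyp4a14 (4.58), Cd36 (2.79), Pdk4 (1.84), Acot1 (1.68) and Cyp4a10/Cyp4a31 (1.76). The last was called in 9 of 18 alternatives, with adjusted p up to 0.758, and was lost on dropping LT NTL replicate 1, 3, 4 or 5 or any MYC NTL replicate (0.0578 to 0.118). The tumor minus NTL change of DEN minus that of LT was -3.86 for Cyp4a14, -1.99 for Cd36, -3.23 for Acaa1b, -0.74 for Cpt2, -1.49 for Ehhadh and -2.21 for Cyp4a10/Cyp4a31. The last was lost on dropping any 1 of LT tumor replicate 1, LT NTL replicate 2, DEN tumor replicates 2 and 4 and DEN NTL replicate 4 (adjusted p between 0.0503 and 0.0815). That of DEN minus that of MYC was -6.40 for Cyp4a14, -4.26 for Cd36, -3.44 for Pdk4, -3.11 for Acaa1b, -3.16 for Acot1, -0.93 for Cpt2 and -1.04 for Ehhadh. That of LT minus that of MYC was 0.88 for Ppara, -2.27 for Cd36 and -2.14 for Acot1. The NTL minus control change of DEN minus that of MYC was 6.61 for Cyp4a14, 2.89 for Cd36 and 3.11 for Pdk4.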

How the results depend on the processing

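No call of the 9 genes reversed under any alternative. Calls in DEN tumor against NTL other than Ppara held under all 20 alternatives, and the replicate block gave the same number of genes in every comparison, 7, 4 and 3 for tumor against NTL in DEN, LT and MYC. When only the compared groups were fitted, called genes numbered 0 in LT tumor against NTL (4 in the fit over all arrays), 0 in LT tumor against control (1), 5 in MYC NTL against control (3), 1 in the DEN minus LT difference of NTL minus control (0) and 5 in that of DEN minus MYC (3). With identifier stems averaged there were 5 in MYC NTL against control and 0 in LT tumor against control. LT tumor against control had 2 with arrays centred on their medians and 0 within arrays of high Xist, where the control arm is replicate 3 alone. LT NTL against MYC NTL gave 1 with Xist as a factor and 0 within arrays of low Xist (4), where the LT NTL arm is replicate 2 alone. With 1 array in an arm, assumed to vary like the other groups, these counts of 0 say nothing about stability. Leaving out 1 array gave 1 to 4 genes in LT tumor against NTL, 0 to 1 in LT tumor against control, 2 to 5 in LT NTL against MYC NTL and 2 to 3 in MYC NTL against control. The pairs of covarying genes (15) were 2 in DEN arrays, 10 in LT and MYC arrays and, in alternatives added after seeing the data, 12 without tumors and 9 with Xist class removed. The cause was not tested.

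Over all features, fitting only the compared groups called 615 in LT tumor against NTL (3838), 183 in DEN NTL against control (37), 1539 in MYC NTL against control (721), 0 in LT tumor against control (3107), 2818 in LT NTL against MYC NTL (1629), 1231 in the LT minus MYC difference of tumor minus NTL (2326), and 2125 (841) and 2076 (613) in those of NTL minus control for DEN minus LT and DEN minus MYC. Averaged stems gave 2311 in LT tumor against NTL, 74 in DEN NTL against control and 1616 in LT tumor against control. Xist as a factor gave 174 in LT NTL against control (454), 1273 in LT tumor against control, 388 in LT NTL against MYC NTL and 266 in the DEN minus LT difference of NTL minus control. Within low Xist there were 8, 478, 93, 36 and 388 in LT NTL against control, MYC NTL against control, LT NTL against MYC NTL and the same differences for DEN minus LT and DEN minus MYC, and within high Xist 12 in LT NTL and 139 in LT tumor against control. All of these that involve LT NTL within low Xist, or LTMYC control within high Xist, rest on 1 array in that arm. Centring moved the median of all genes by 0.13 in LT tumor against NTL, 0.15 in LT tumor against control and 0.12 in LT NTL against MYC NTL. It split calls into 1465 higher and 4759 lower (2006 and 1832), 1190 and 5430 (1652 and 1455) and 542 and 2335 (925 and 704) there, 2266 and 4727 (2928 and 3142) and 1498 and 2951 (2170 and 1937) in DEN and MYC tumor against NTL, 2178 and 4823 (2832 and 2945) in DEN tumor against control, and 725 and 255 (313 and 408) in MYC NTL against control. It also gave 1472 and 1105 (1185 and 1434) in the DEN minus LT difference of tumor minus NTL and 201 and 708 (297 and 316) in the DEN minus MYC difference of NTL minus control. Quantile normalization gave 394 and 306 in MYC NTL against control and 626 and 725 in LT NTL against MYC NTL. Array brightness is compressed at both ends of the scale, and LT tumor and MYC NTL have 3 arrays each.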

Other observations

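Targets of ATF4, the transcription factor of the amino acid and stress response that also drives Fgf21, were followed beside it. In DEN tumors 8 of 12 measured targets were higher than in NTL and 0 lower, with a median change of 1.34, against -0.04 over all features. Asparagine synthetase Asns (3.83), Psat1, an enzyme of serine synthesis (3.80), and the stress factor Atf3 (3.06) changed most. In LT tumors 4 were higher and 0 lower, Atf3 (1.77), Nupr1 (1.60) and the cystine carrier Slc7a11 (1.54) by the most. In MYC tumors 4 were higher, Slc7a11 (1.94), Nupr1 (1.68) and Atf3 (1.67) by the most, and 2 were lower, among them Chac1 (-1.01). Asns was already higher in MYC NTL than in LTMYC control (3.50), the 1 target of 12 called there.

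Among genes of PPAR-gamma and lipid storage, 4 of 11 in LT tumors were higher than in NTL and 0 lower, with Aqp7 (3.33), lipoprotein lipase Lpl (2.58) and the droplet protein Cidec (2.44) changing most. LT tumors against control gave 3 higher and 3 lower. In LT NTL 3 were lower than in control: Cidea (-3.73), Cidec (-2.75) and Mogat1 (-1.67). In MYC tumors Lpl (1.54) and Fabp4 (1.35) were higher than in NTL. Of the pyruvate dehydrogenase kinases other than Pdk4, Pdk1 was lower and Pdk3 higher in DEN tumors (-1.77 and 1.01) and in LT tumors (-1.27 and 0.76). The FGF21 receptor genes gave 1 lower gene of 5 in LT tumors, Fgfr4 (-0.50), and 1 in MYC tumors, Fgfr2 (-1.98).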
